A study of Caenorhabditis elegans with 2 samples.

Results

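Proteasome subunit genes were examined for binding of HIF-1, the worm hypoxia-inducible factor. The members were taken by name from the Ensembl WBcel235 gene models, as all protein-coding genes whose symbol starts with pas-, pbs-, rpt- or rpn- followed by a number. There were 33 of them among 19985 protein-coding genes, 14 for the core particle and 19 for the regulatory particle. A gene was called bound when the summit of a peak lay from 1000 bp upstream to 200 bp downstream of its start.

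The proteasome is the large protease that degrades proteins tagged with ubiquitin. Its core particle is a barrel of alpha rings, encoded by the pas genes, and beta rings, encoded by the pbs genes, and the beta rings hold the proteolytic sites. The regulatory particle caps the barrel, with a ring of ATPases, encoded by the rpt genes, that unfold substrates, and with non-ATPase subunits, encoded by the rpn genes, that receive ubiquitin, remove it and hold the cap together. In worms the transcription factor SKN-1A is known to raise the transcription of proteasome genes when the protease is impaired. HIF-1 itself is a client of the proteasome, since it is hydroxylated by EGL-9 in the presence of oxygen, marked by the VHL-1 ligase and degraded.

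The measurement was chromatin immunoprecipitation sequencing of 1 group with 2 biological replicates, whole hermaphrodites of strain OR3350 at the L4 larval stage, 55 h after synchronisation of starved L1 larvae. The animals stably carry an insertion that targets hif-1 and fuses GFP and FLAG to the C terminus of the protein, and an anti-GFP antibody was used. Whole animals do not resolve tissues, no oxygen condition is named in the labels, and there was no other group to compare with, so no test between conditions was possible. The authors' lists on ce11 held 631 peaks in the thresholded list of the series, 6541 in the relaxed list of the pooled reads, 13935 in the relaxed list of replicate 1 and 13823 in that of replicate 2. Every peak carries the authors' signal value relative to a control, which serves here for descriptions and ranks within one list. Its median was 77.8 in the thresholded list, 26.4 in the pooled list, 11.7 in replicate 1 and 12.2 in replicate 2. The sequencing depth is unknown.

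In the thresholded list 2 of the 33 members were bound, rpn-3 and rpn-6.1, both of the regulatory particle, and 0 of the 14 core particle genes were. The 2 are 6.06% of the members and 10.5% of the 19 regulatory particle genes, beside 1.97% of all protein-coding genes. More members had a summit in the relaxed lists, which hold background as well as peaks. In the pooled relaxed list 13 of 33 (39.4%) had a promoter summit, beside 12.2% of all protein-coding genes. These were 4 of the 14 core particle genes (28.6%) and 9 of the 19 regulatory particle genes (47.4%).

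The replicate lists gave similar counts. In replicate 1 there were 12 of 33 members with a promoter summit (36.4%, beside 20.5% of all protein-coding genes), 4 of the core and 8 of the regulatory particle. In replicate 2 there were 15 (45.5%, beside 19.7%), 4 of the core and 11 of the regulatory particle. Both replicate lists had a promoter summit at 9 members (27.3%, beside 10.1%), which were pas-5 and pbs-4 of the core and rpt-2, rpt-3, rpn-1, rpn-3, rpn-6.1, rpn-9 and rpn-11 of the regulatory particle. All 9 were also in the pooled list. The members were chosen as a named family and not at random, so the shares are given as descriptions without a test.

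**Figure D1:**
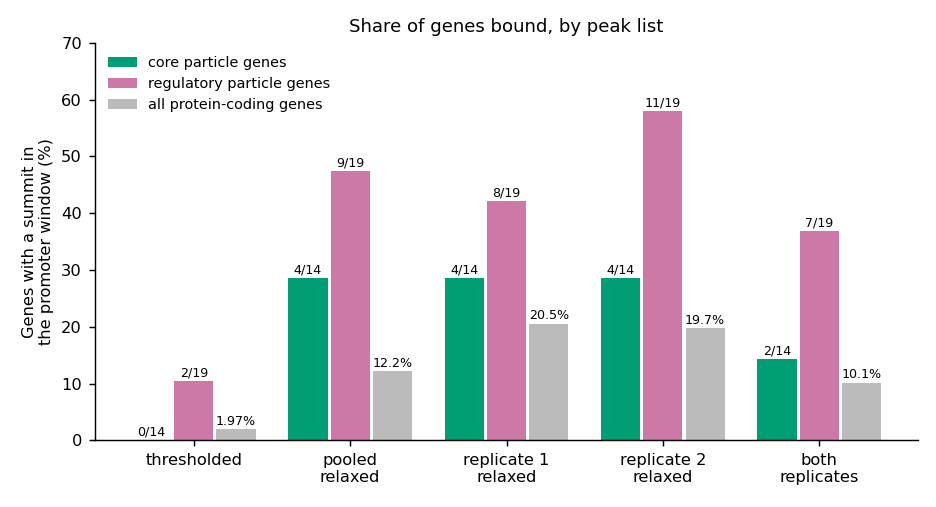
Share of genes with a summit in the promoter window (vertical axis, %) in each ce11 peak list, for core particle genes, regulatory particle genes and all protein-coding genes. Numbers above the bars are counts of members or the percent of all genes. The regulatory particle bar is above that of all genes in every list. The core particle bar is above that of all genes in the relaxed lists and in both replicates. It is at 0 of 14 in the thresholded list, where the bar of all genes is at 1.97%.

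The counts by subunit class are small and were not tested against each other. They stand beside 1.97% of all protein-coding genes in the thresholded list, 12.2% in the pooled list and 10.1% in both replicate lists. Of the 13 rpn genes, 2 were bound in the thresholded list, 7 in the pooled list and 5 in both replicate lists. Of the 6 rpt genes, 2 were bound in the pooled list and the same 2, rpt-2 and rpt-3, in both replicate lists. Of the 7 pas genes, 2 were bound in the pooled list and 1 in both replicate lists, and the 7 pbs genes gave the same counts.

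The sequences around the summits are shown first for rpn-3 and rpn-6.1, the members in the thresholded list, because the core of the hypoxia response element was searched in them. The core is ACGTG or GCGTG on either strand, and matches are in capitals. Each run is 101 bases of ce11 centred on the pooled summit, read 5′ to 3′ on the strand of the member. They lie at chrIII:8447066-8447166 (plus strand) and chrIII:6962227-6962327 (minus strand).
rpn-3: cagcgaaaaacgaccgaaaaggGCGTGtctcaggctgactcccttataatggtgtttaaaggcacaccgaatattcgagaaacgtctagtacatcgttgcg
rpn-6.1: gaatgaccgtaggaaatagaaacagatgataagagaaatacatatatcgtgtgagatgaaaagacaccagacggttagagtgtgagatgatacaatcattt
The rpn-3 window held 1 core, 24 bp from the summit, and the rpn-6.1 window held none.

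rpn-3 (WBGene00004460), which encodes a subunit of the lid of the regulatory particle, had the strongest member peak of the pooled, thresholded and replicate 2 lists, while rpn-6.1 was slightly stronger in replicate 1. Its signal was 54.4 in replicate 1, 55.3 in replicate 2 and 114 in the pooled and thresholded lists. The peak ranked 197 of 13935 in replicate 1, 150 of 13823 in replicate 2 and 151 of 631 in the thresholded list. By rank it stood among the strongest peaks of either replicate. The peak spans chromosome III from 8446894 to 8447337 (ce11), and its summit lies 237 bp upstream of the rpn-3 start, outside protein-coding genes. This interval is shared. hsp-110, which encodes a cytosolic chaperone of the HSP110 family, is transcribed in the opposite direction, and the summit lies 207 bp upstream of its start, closer than to rpn-3. In addition, 1 noncoding gene had the summit in its window. A peak at such a shared promoter cannot be given to one of these genes from these data. Replicate 2 had a weaker summit of 14.9 at 43 bp upstream of rpn-3.

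rpn-6.1 (WBGene00004462) encodes the lid subunit known as PSMD11 in mammals, whose raised level in worms is known to increase proteasome activity. Its signal was 56.1 in replicate 1, 33.4 in replicate 2 and 90.1 in the pooled and thresholded lists. The ranks were 185 in replicate 1, 415 in replicate 2 and 229 of 631 in the thresholded list, so replicate 2 placed it lower than replicate 1 did. The peak spans chromosome III from 6962055 to 6962498, with the summit 276 bp upstream of the rpn-6.1 start. The summit also lies 187 bp downstream of the start of F57B9.1, in an intron of that gene, which is transcribed in the opposite direction with 88 bp between the 2 genes. The paralogue rpn-6.2 had no summit in its promoter window in any of the 4 lists.

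When each summit was given only to the nearest gene start, 0 of the 33 members were bound in the thresholded list (beside 1.60% of all protein-coding genes), since hsp-110 and F57B9.1 have the nearest starts. With a window from 2000 bp upstream to 500 bp downstream, the core particle gene pbs-1 joined them (3 of 33 members, beside 2.71%), and 17 members were in both replicate lists (beside 3599 of the 19985 protein-coding genes). In the 631 strongest peaks of either replicate alone, the bound members were again rpn-3 and rpn-6.1 (beside 1.94% of all protein-coding genes in replicate 1 and 1.85% in replicate 2).

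**Figure D2:**
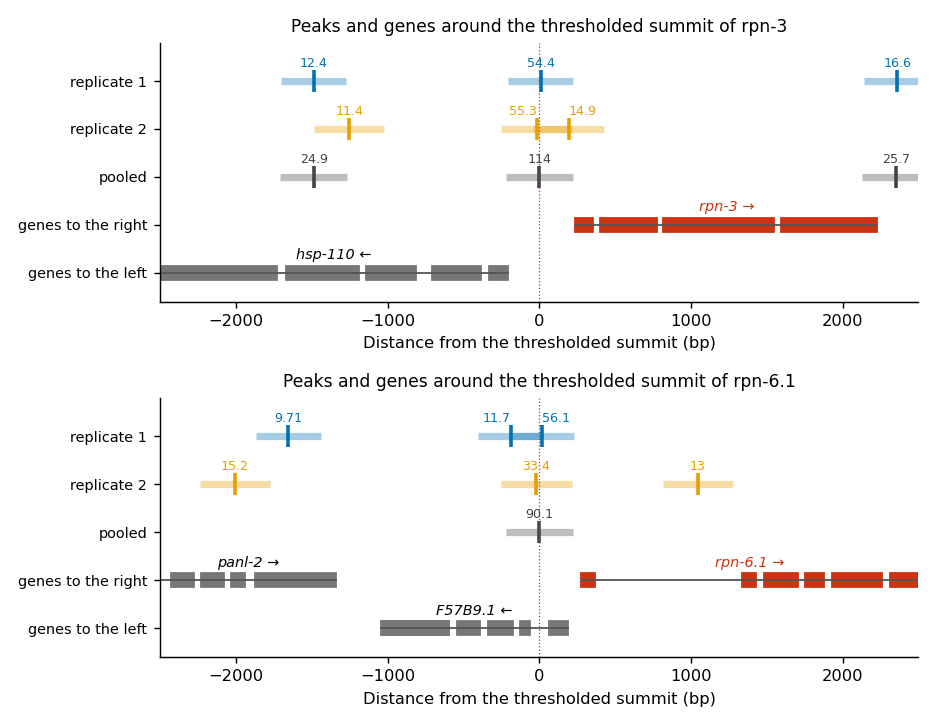
Peaks of each relaxed list and protein-coding gene models around the thresholded summits of rpn-3 and rpn-6.1. The horizontal axis is the distance from the summit in bp, with the member reading to the right, light bars are peaks, ticks are summits labelled with their signal, boxes are exons and the dotted line is the thresholded summit. Both summits lie between divergent genes or just inside the divergent neighbour, 237 and 276 bp upstream of the members.

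The other members of the pooled list had signals of 22.4 to 40.3, below the lowest signal of the thresholded list, 54.1. Among the ATPase genes, rpt-3 had a signal of 17.6 in replicate 1, 21.2 in replicate 2 and 40.3 in the pooled list. Its summit lay 698 bp upstream of the start, the farthest of the pooled member summits, in the 3′ UTR of chtb-2, the neighbour upstream. For rpt-2 the values were 10.99 in replicate 1, 17.6 in replicate 2 and 30.1 in the pooled list, at 133 bp upstream. The 3 lists placed the rpt-2 summit within 1 bp of each other, between rpt-2 and aps-1, which encodes an adaptor protein complex subunit and starts 168 bp away on the other side. Of the remaining ATPase genes, rpt-4 had a weak summit in replicate 2 alone (9.93, 7 bp downstream of the start), and rpt-1, rpt-5 and rpt-6 had none.

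Among the non-ATPase genes, rpn-11 encodes the deubiquitinase of the lid. It had a signal of 20.7 in replicate 1, 19.1 in replicate 2 and 39.6 in the pooled list, with summits 14, 8 and 10 bp upstream of its start. The summit ranked 1338 of 13935 in replicate 1 and 1633 of 13823 in replicate 2. The replicates were close in position there, and no other protein-coding gene had that summit in its window. rpn-9, a lid subunit gene, had 19.6 in replicate 1, 13.5 in replicate 2 and 34.6 in the pooled list, and the replicate 2 summit lay 89 bp from the pooled one. rpn-1, which encodes a scaffold of the base that binds ubiquitin receptors and shuttle factors, had 12.4 in replicate 1, 11.9 in replicate 2 and 25.2 in the pooled list. Its replicate summits lay 349 and 409 bp upstream, against 301 bp for the pooled one, so the position was less certain than at rpn-11.

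rpn-2, the gene of the other large scaffold of the base, had 20.8 in replicate 1, no summit in its window in replicate 2, and 32.9 in the pooled list. rpn-8, which encodes the partner of RPN-11, had no summit in replicate 1, 14.3 in replicate 2 and 27.1 in the pooled list. Each of these rests on 1 replicate list and the pooled list. The gene of the ubiquitin receptor RPN-13 had a summit in replicate 2 alone (14.5, 444 bp upstream), as did rpn-5 (9.99, 886 bp upstream). rpn-7, rpn-10, which encodes another ubiquitin receptor, and rpn-12 had none in any list.

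In the core particle the strongest member of the pooled and replicate 1 lists was the alpha ring gene pas-5, and that of replicate 2 was pbs-4. For pas-5 the signal was 21.0 in replicate 1 and 40.3 in the pooled list, 337 and 352 bp upstream of its start. In replicate 2 the summit at that place was close to the lower end of the list (9.67, rank 13484 of 13823), and a stronger one of 11.2 lay 862 bp upstream, so the replicates differed here. The beta ring gene pbs-4 had 12.1 in replicate 1, 14.6 in replicate 2 and 28.1 in the pooled list, at 122 bp upstream in the pooled list, with both replicate summits within 45 bp of it.

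pas-4 had 16.02 in replicate 1, no summit in replicate 2 and 25.4 in the pooled list. Its pooled summit was nearer to rpb-3, which encodes a subunit of RNA polymerase II and starts 103 bp away on the other side. pbs-3 had no summit in replicate 1, 12.4 in replicate 2 and 22.4 in the pooled list, in the 3′ UTR of its neighbour ulp-2. pbs-5, the gene of the chymotrypsin-like subunit, had a summit in replicate 1 alone (9.22) and pbs-1 in replicate 2 alone (9.69), both near the lowest signals of these lists, 9.11 and 9.57. The remaining core particle genes, pas-1, pas-2, pas-3, pas-6, pas-7, pbs-2, pbs-6 and pbs-7, had no promoter summit in any list. In all, 18 members had a promoter summit in at least 1 of the 3 relaxed lists (beside 30.2% of all protein-coding genes) and 15 had none.

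**Figure D3:**
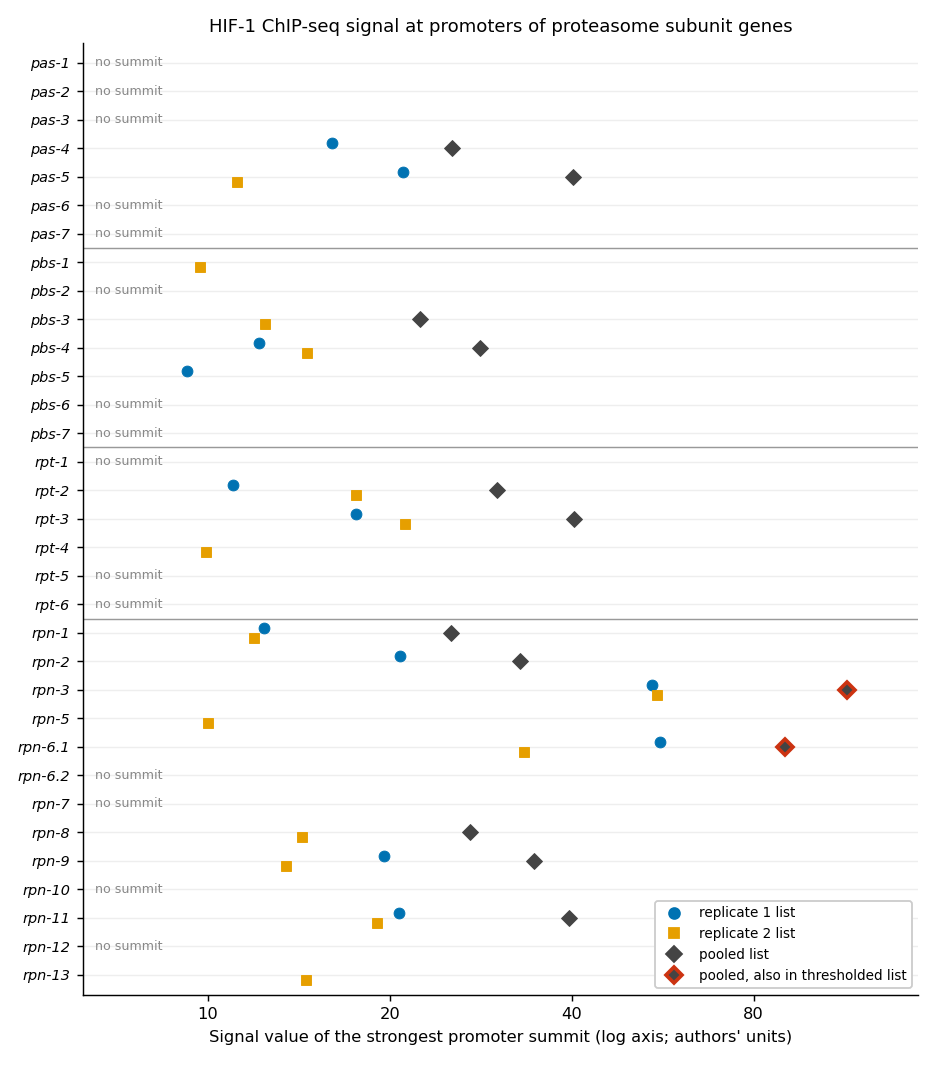
Signal value of the strongest promoter summit of each of the 33 members (log axis, the authors' units) in the relaxed lists of replicate 1, replicate 2 and the pooled reads, which are on different scales. rpn-3 and rpn-6.1 are the only members also in the thresholded list and lie apart from the other 11 pooled members, which run from 22.4 to 40.3.

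**Figure D4:**
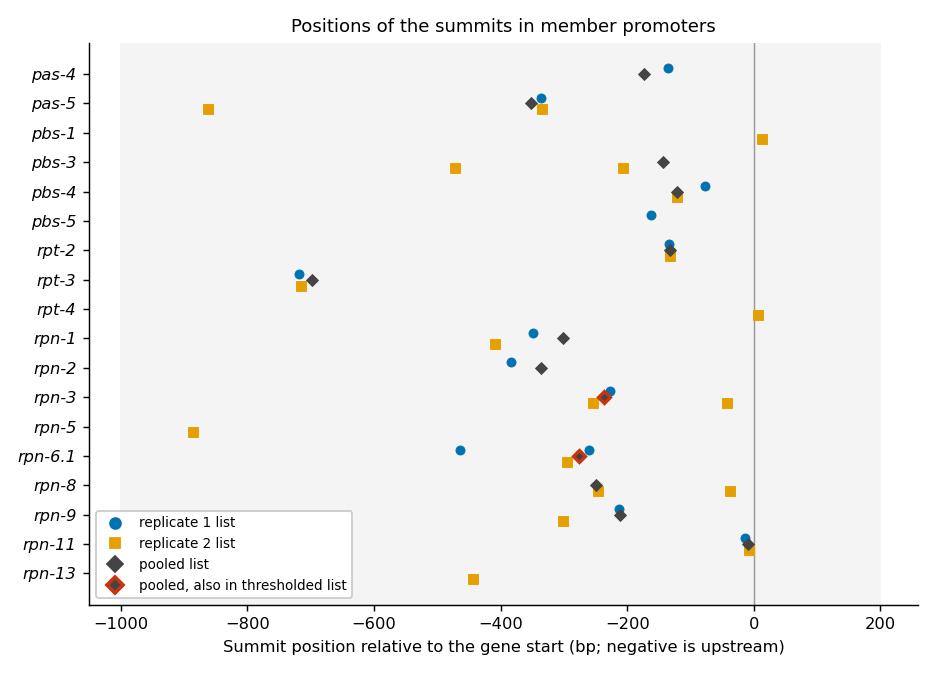
Positions of all promoter summits of the 18 members with one in a relaxed list, in bp relative to the gene start (negative is upstream), with the window shaded. Pooled summits run from 698 bp upstream at rpt-3 to 10 bp upstream at rpn-11, and the replicate summits of rpt-2 and rpn-11 nearly coincide.

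The pooled summits of the 13 members lay at a median of 237 bp upstream of the start, and those of the 2424 genes of nuclear chromosomes with a pooled promoter summit at 259.5 bp upstream. The median pooled signal was 32.9 over the 13 members and 29.4 over the 2424 genes. It was 26.8 over the 4 core particle genes and 34.6 over the 9 regulatory particle genes. The summit was found within 100 bp in both replicate lists for 8 of the 13 members (61.5%) and for 55.5% of the 2424 genes. Another protein-coding gene shared the summit in its own window at 8 of the 13 (61.5%), against 38.0% of the 2424 genes. These 8 were rpn-3, rpn-6.1, rpn-1, rpn-2, rpn-8, rpn-9, rpt-2 and pas-4, so 7 of the 9 regulatory particle genes and 1 of the 4 core particle genes shared their summit. The partners not yet named were ribo-1, which encodes an oligosaccharyltransferase subunit, at rpn-1, the mitochondrial ribosomal protein gene mrps-6 at rpn-8, C23G10.7 at rpn-2 and T06D8.9 at rpn-9. At each of rpn-3, rpn-1, rpn-8, rpt-2 and pas-4, 1 noncoding gene also had the summit in its window. No share over all genes is given for noncoding partners. The base composition did not set the members apart, with a median GC content of 42.6% within 50 bp of the summit in both sets. Whether the shared promoters had a part in the number of members bound was not tested.

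**Figure D5:**
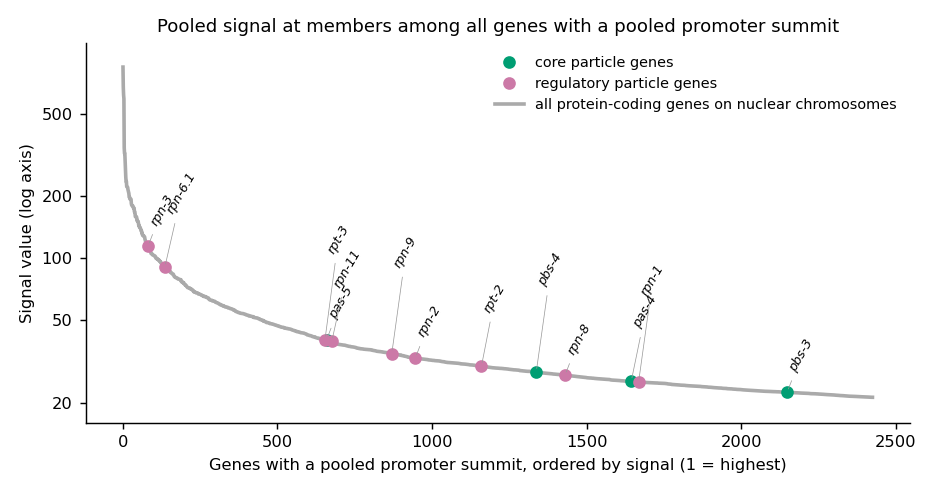
Pooled signal value (log axis) of the strongest promoter summit of each gene, in order of signal, over the 2424 genes of nuclear chromosomes with a pooled promoter summit. Points mark the 4 core particle and 9 regulatory particle members, of which rpn-3 (114) and rpn-6.1 (90.1) lie on the steep part of the curve and the others at 22.4 to 40.3, with pas-5 hidden under rpt-3.

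The hypoxia response element core lay within 50 bp of the pooled summit at 6 of the 13 members, pas-4, pas-5, pbs-3, rpt-3, rpn-3 and rpn-11 (46.2%), and of 27.7% of the 2133 nuclear promoter peaks of that list. At the thresholded peaks it was 1 of 2, against 47.8% of 295 promoter peaks. Within 100 bp it was found at 9 of the 13 members, rpn-6.1 among them, against 44.0% of the pooled promoter peaks. In the promoters themselves, 250 bp before to 50 bp after the gene start, 15 of the 33 members held the core (45.5%), against 41.1% of 19973 nuclear promoters.

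A second set of sequences is shown because 4 of the 13 pooled summits, at rpn-1, rpn-2, rpn-11 and rpt-2, held TTGTCAT, a sequence of the kind that SKN-1 is known to bind. It was searched on either strand after the summit sequences had been seen. It lay within 50 bp of 30.8% of the 13 member summits, against 2.53% of the 2133 promoter peaks of the pooled list. Each of the 4 was in the longer form ATTGTCATC, to which the same limit applies. The longer form lay at 14 of those 2133 peaks (0.656%), and the 4 member peaks are among the 14. The shorter form, which every match of the longer one contains, is in capitals, and in rpn-2 it is on the other strand. The windows are 101 bases of ce11 on the strand of the member, at chrIV:6910164-6910264 (minus), chrIII:6198798-6198898 (plus) and chrV:6017752-6017852 (minus).
rpn-1: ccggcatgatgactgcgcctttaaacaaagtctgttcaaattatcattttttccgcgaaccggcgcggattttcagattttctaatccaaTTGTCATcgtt
rpn-2: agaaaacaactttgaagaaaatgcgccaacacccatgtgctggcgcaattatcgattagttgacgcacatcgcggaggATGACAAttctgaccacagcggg
rpt-2: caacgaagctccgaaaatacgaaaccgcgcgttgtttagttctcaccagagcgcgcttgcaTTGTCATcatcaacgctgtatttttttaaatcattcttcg
The distances from match to summit were 40, 28 and 11 bp. Of these 4 members only rpn-11 also held the hypoxia response element core within 50 bp. In the promoters, 250 bp before to 50 bp after the start, 8 of the 33 members held TTGTCAT (24.2%), against 7.02% of 19973 nuclear promoters. These were rpn-2, rpn-11, rpn-12, rpt-2, pas-2, pas-6, pbs-1 and pbs-6, of which rpn-2, rpn-11 and rpt-2 had a pooled promoter summit. A match of letters is a description and not a measured site, and SKN-1 was not assayed here. The repeat GAGAGA lay at 1 of the 13 member summits, against 13.6% of the pooled promoter peaks.

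Genes around the proteasome were described from a list of 48 genes, of which 43 matched an annotated protein-coding gene outside the members. It held ubiquitin and proteasome factors, genes of the SKN-1A pathway, and relatives of the lid from the COP9 signalosome and the translation initiation factor eIF3. The list was chosen by name with earlier results of these data known, so its shares are descriptions without a test. In the thresholded list 5 of the 43 were bound (11.6%, beside 1.97% of all protein-coding genes), and in the pooled list 16 (37.2%, beside 12.2%). The strongest was cdc-48.1, the gene of an ATPase that extracts ubiquitinated proteins for the proteasome. It had a signal of 109.9 in replicate 1, 77.2 in replicate 2 and 193 in the thresholded list, 179 bp upstream of its start, above rpn-3 in every list. wdr-23, whose product holds SKN-1 in check, had 63.3 in replicate 1, 38.9 in replicate 2 and 93.3 in the thresholded list. The replicate 1 summit lay 90 bp upstream of the wdr-23 start, and those of replicate 2 and the thresholded list 164 and 113 bp downstream, so the position was not shared. eif-3.C, a translation initiation factor gene with a domain related to lid subunits, had a thresholded signal of 111.

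The ubiquitin-conjugating enzyme gene let-70 had a thresholded signal of 87.8 at 762 bp upstream, in a window shared with klc-1, and the shuttle factor gene ubql-1 had 62.7 at 582 bp upstream, shared with pdi-3. Of the 5, the core lay within 50 bp of the summit at cdc-48.1, eif-3.C and ubql-1. skn-1 itself had no thresholded summit, and a weak pooled one of 22.5 at 149 bp upstream, with a summit in replicate 2 (15.6) and none in replicate 1. Both replicate lists had a promoter summit at 12 of the 43, beside 10.1% of all protein-coding genes.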

How the data were processed

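Peak lists of 1 group with 2 biological replicates were used, and the replicates have separate biosamples in the labels. Per the deposited descriptions, the relaxed lists hold peaks and background meant for irreproducible discovery rate (IDR) analysis, made from the alignments of 1 replicate or of both pooled and 1 control, and the thresholded list holds peaks that passed IDR. The sources used here give no aligner, peak caller or IDR threshold. The deposited signal value of a peak is the authors' own, with a formula that is not given, and it served for descriptions and ranks within one list. The files hold no read counts, so no interval that needs depth was computed.

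Summits were placed against Ensembl release 115 gene models and the WBcel235 assembly, which is ce11, and all peak ends lay within its chromosomes. Positions are 1-based. The ce10 lists were not used. Sequences come from the RefSeq copy of the assembly, both strands were searched, and only some windows are printed, none of them in a UTR. The scripts ran in Python 3.11.15, and the promoter calls were tested on simulated data.

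The members and lists were chosen with earlier results of these data known. Every member with a promoter summit in the thresholded or pooled list is named with its values, the others by class, and of the wider list those in the thresholded list and the 5 with the highest pooled signal, which are the same genes. skn-1 was named after its values were seen. With 1 group and a chosen family, no p-value was computed. Alternatives covered the promoter window, transcript starts, assignment to the nearest start, removal of the weaker 50% of peaks, single replicates and the motif window.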

Additional observations from a re-analysis of the deposited data

How the results depend on the processing

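No member was bound in the thresholded list when each summit went to the nearest gene start only (0 of 33, and 0 of the 19 regulatory particle genes), since the neighbours of rpn-3 and rpn-6.1 start closer to the summits. When the promoter reached 2000 bp upstream and 500 bp downstream, the core particle count was 1, pbs-1, and the count of members in both replicate lists was 17. The narrower window, other transcript starts and the stronger 50% of peaks kept the counts over all 33 members within 1.5 times of their values in the thresholded list, the pooled list and both replicate lists. With the stronger 50% of peaks, the core particle count was 2 in the pooled list (14.3%, beside 7.57% of all protein-coding genes), and 4 with all peaks. In both replicate lists it was 1 (7.14%, beside 6.18%), and 2 with all peaks. With the wide window the core particle count was 7 in the pooled list (50%, beside 18.5% of all protein-coding genes). In both replicate lists it was 5 with the wide window (35.7%), beside 3599 of the 19985 protein-coding genes. The regulatory particle count there was 12 with the wide window (63.2%), beside the same 3599. By the nearest start it was 4 (21.1%, beside 11.6%), and 7 as reported. The reported window gave 12.2% of all protein-coding genes in the pooled list and 10.1% in both replicate lists, so the wide window raised these shares too. The 631 strongest peaks of each replicate's relaxed list, not selected by IDR, stood in for the thresholded list without the other replicate. In either replicate the count was 2 for all members and 0 for the core (beside 1.94% and 1.85% of all protein-coding genes). The signal in single replicates ranged from 54.4 to 55.3 at rpn-3 and from 33.4 to 56.1 at rpn-6.1. Single lists are on a lower scale than the pooled list (114 and 90.1). The hypoxia response element core lay within 25 bp of 0 of the 2 thresholded summits, beside 25.8% of the 295 thresholded promoter peaks. Within 100 bp it lay at 2 of the 2, beside 68.5% of those peaks. In the pooled list it lay within 50 bp at 6 of the 13 member summits, beside 27.7% of 2133 promoter peaks. The depth is unknown, so a missing summit does not show that HIF-1 was absent, and the lowest signals of the relaxed lists include background by their design. No paired analysis was possible because there is 1 group.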

Other observations

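Among the 31 members with no thresholded promoter summit, 3 had one within 2500 bp of the start. These were pbs-2 (71.7, 1361 bp downstream), pbs-1 (60.6, 1531 bp upstream) and rpt-1 (79.2, 2108 bp downstream). The next was rpn-8, with a thresholded summit of 59.3 at 2870 bp upstream. For the 31 the median distance to the nearest thresholded summit was 52097 bp. In the pooled list the summit closest to the gene start lay outside the window, within 500 bp of the start, at 3 members. These were pas-1 (22.4, 295 bp downstream), rpt-3 (25.4, 384 bp downstream), which also had one inside, and pbs-5 (23.2, 458 bp downstream). No share over all protein-coding genes is given for these distances, so the counts only describe the members. Of the 33 members, 23 have an upstream neighbour on the opposite strand, and 9 of these 23 had a pooled promoter summit, as did 4 of the 10 with an upstream neighbour on the same strand. A pooled promoter summit was found at 12.2% of all protein-coding genes, for which no counts by neighbour strand are given.

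Longer runs of letters were shared by member summits on either strand. They were searched after the sequences had been seen, so their counts are descriptions. The longest run shared by the 101-base windows of at least 2 of the 13 pooled summits was GCACACCGAATATT, part of the rpn-3 sequence, which lay at the summits of rpn-3 and pbs-4. These were the only 2 of the 2133 nuclear promoter peaks of the pooled list with it, and the run has 3 matches in the genome. The longest run shared by at least 3 was TGCGCCTTTAA, at rpn-1, rpn-8 and rpn-9, 3 of 13 against 0.938% of the promoter peaks. That run is common, with 2354 matches in the genome. It is in capitals in the rpn-9 window, on the strand of the gene, at chrII:11239081-11239181 of ce11 (minus).
rpn-9: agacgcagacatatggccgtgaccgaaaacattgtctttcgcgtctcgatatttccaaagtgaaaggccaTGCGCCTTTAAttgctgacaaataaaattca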
